A study of Homo sapiens with 5 samples.

Results

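The genes described here are 33 of the sterol and fatty acid synthesis pathway that serve sterol regulatory element binding proteins (SREBPs) or answer to them. The genes were taken by symbol for their function, with earlier results of these data known. All 33 were found among 25343 gene rows, and all 33 passed the filter on low counts, as did 13604 genes in all. They comprise 7 genes of the mevalonate arm, 11 of the steps from squalene to cholesterol, 6 of SREBP control and sterol transport and 9 of fatty acid synthesis and desaturation. RNA came from SW620, a human colon carcinoma cell line sequenced as stranded mRNA libraries, that in every case carried a tetracycline-inducible short hairpin RNA against MUC1 (tet-MUC1shRNA). Nothing says whether the line is a single clone or a pool. There were 3 libraries named neg (replicates 1, 2 and 3) and 2 named pos (replicates 1 and 3). Vehicle or doxycycline was given to the cells, but neither name is tied to either in the labels, so neg and pos are used as they stand. Pos replicate 2 and a line with a control hairpin were not analysed here.

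Cholesterol is built from acetyl-CoA by way of mevalonate, farnesyl diphosphate, squalene and lanosterol, and fatty acids are built from the same precursor by acetyl-CoA carboxylase and fatty acid synthase. Both routes are governed by SREBPs, transcription factors made as precursors in the membrane of the endoplasmic reticulum (ER). When sterols are scarce the escort protein SCAP carries the precursor to the Golgi for cleavage, and when sterols are plentiful INSIG proteins hold SCAP back. Cancer cells of the colon commonly make much of their own fatty acid and sterol.

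In these libraries the cells' identity and the comparison's limits were as follows. MUC1 had 176, 252 and 218 reads in neg and 27 and 13 in pos. Libraries held 10888704 to 14137678 counted reads. Across genes, as a description, log2 CPM (reads scaled to a common library size) gave r = 0.912 for the pos pair and 0.983 to 0.993 for neg pairs. Markers of colon epithelium summed to 6069 to 7894 CPM in neg and to 7910 and 16430 in pos, although LGALS4, CDX1 and GPA33 of the 12 had at most 13 reads in any library. KRT8, KRT18 and KRT19 carried most of that sum, and single markers went both ways: CDX2 rose (log2 fold change 2.19, edgeR adjusted p = 0.0337) and CDH1 fell (-1.68, adjusted p = 0.0434). Whether the high sum in pos replicate 3 bears on the results was not tested. Of lipid-making cell types that could confuse the reading, the defining hepatocyte genes TTR and FGB were at 0 in every library, ALB had at most 1 read, and the adipocyte genes ADIPOQ, FABP4 and LEP had at most 1 read each. The hepatocyte list summed to 14.2 to 18.1 CPM in neg and 10.8 to 12.4 in pos. SERPINA1 carried most of that sum, with 255, 281 and 174 reads in neg and 133 and 102 in pos. APOA1 and APOA2 had at most 9 and 7 reads. The adipocyte list summed to 1.61 to 2.38 CPM in neg and 1.62 to 1.69 in pos. CIDEC carried most of it, with 31, 26 and 15 reads in neg and 13 and 15 in pos, and PLIN1 had at most 7. In bulk RNA, fewer cells of a type and less RNA per cell cannot be told apart.

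Promoters of these genes were read first, because SREBPs bind sterol regulatory elements together with the CCAAT-binding factor NF-Y. The RefSeq table (GRCh38.p14) held a promoter, from 250 bases before to 50 after a start, for 29 of the 33 genes, with no entry for ACAT2, FASN, FDFT1 and SQLE. The core of the sterol regulatory element was searched as TCACNCCAC and the NF-Y box as CCAAT, both on either strand, and their matches did not overlap. A CCAAT match was found in 22 of the 29 genes, or 75.9%, against 39.7% of all 27305 genes in the table. The sterol element core was found only in SREBF2 among the 29, or 3.45%, against 1.39% of all genes. The 250 bases upstream of 4 genes are shown, for both SREBP genes and for STARD4 and SCD, whose reads were lower in both pos libraries than in any neg library. Capitals mark the 2 motifs.
SREBF2, chr22:41832855-41833104, plus strand: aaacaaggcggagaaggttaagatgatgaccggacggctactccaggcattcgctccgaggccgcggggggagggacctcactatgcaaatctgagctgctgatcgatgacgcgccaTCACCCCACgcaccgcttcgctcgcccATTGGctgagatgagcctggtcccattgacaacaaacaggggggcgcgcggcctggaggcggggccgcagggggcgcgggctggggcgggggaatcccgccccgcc
SREBF1, chr17:17836987-17837236, minus strand: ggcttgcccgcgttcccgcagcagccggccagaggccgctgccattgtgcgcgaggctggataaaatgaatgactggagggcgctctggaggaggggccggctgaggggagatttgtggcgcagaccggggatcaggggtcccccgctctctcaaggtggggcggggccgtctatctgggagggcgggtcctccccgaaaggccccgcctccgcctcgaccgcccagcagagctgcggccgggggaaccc
STARD4, chr5:111512536-111512785, minus strand: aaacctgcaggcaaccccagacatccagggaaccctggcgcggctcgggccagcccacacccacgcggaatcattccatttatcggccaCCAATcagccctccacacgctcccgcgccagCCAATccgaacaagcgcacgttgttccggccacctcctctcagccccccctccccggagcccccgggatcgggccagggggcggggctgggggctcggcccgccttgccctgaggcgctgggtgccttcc
SCD, chr10:100346983-100347232, plus strand: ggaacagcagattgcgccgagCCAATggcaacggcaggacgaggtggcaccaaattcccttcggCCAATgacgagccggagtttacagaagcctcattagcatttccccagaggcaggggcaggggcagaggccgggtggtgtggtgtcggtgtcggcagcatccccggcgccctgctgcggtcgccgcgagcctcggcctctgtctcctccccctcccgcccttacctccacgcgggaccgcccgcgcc
Counting back from the base before the start, the element core in SREBF2 begins at position -133 and its CCAAT box, on the other strand, at -106. STARD4 has CCAAT boxes at -161 and -130, and SCD at -229 and -186. SREBF1 has neither motif in this window. A match of letters is a description and says nothing of binding in these cells.

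Levels were compared between genes as CPM per kilobase of the canonical transcript, using the mean of the 3 neg libraries. The desaturase SCD, which turns saturated into monounsaturated fatty acids, stood highest at 92.3 CPM per kb. The sterol isomerase EBP followed at 69.0, squalene synthase FDFT1 at 61.4, the fatty acid elongase ELOVL5 at 49.4 and the last enzyme of cholesterol synthesis, DHCR7, at 44.7. At the low end were STARD4 at 2.11, INSIG1 at 2.68, ELOVL6 at 2.78, the desaturase FADS2 at 3.03 and mevalonate kinase MVK at 3.44. SREBF2 (28.2) and SREBF1 (20.5) lay in the upper part of the order, and SCAP (17.3) close to them. FADS1 and FADS2, neighbours that encode the delta-5 and delta-6 desaturases, differed widely, at 28.7 and 3.03. Together the 33 genes took 0.268%, 0.276% and 0.270% of counted reads in neg and 0.227% and 0.156% in pos. Summed as TMM-normalised CPM, which allows for the low scaling factor of pos replicate 3 (0.705), they came to 2473, 2453 and 2364 in neg and 2239 and 2216 in pos.

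**Figure D1:**
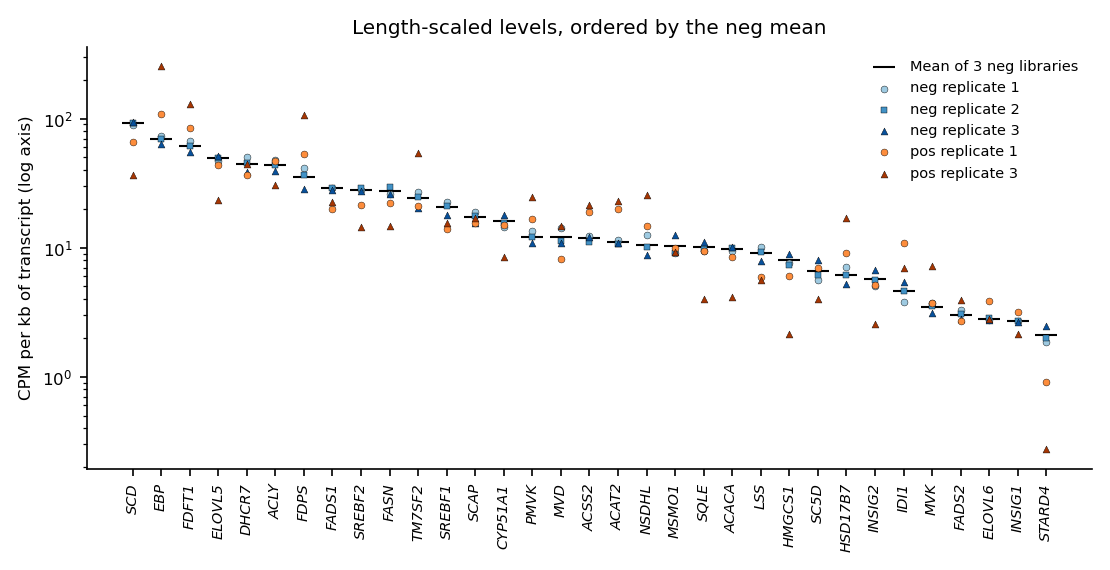
CPM per kb of transcript (log axis) of the 33 genes in each library, ordered by the mean of the 3 neg libraries (black bars), with blue symbols for neg and orange symbols for pos libraries. SCD leads at 92.3 and STARD4 closes the order at 2.11, and the median distance from neg, in log2 units of either sign, was 0.39 for pos replicate 1 and 0.96 for pos replicate 3.

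Between pos and neg, the 33 genes did not move as one. ACAT2, which makes acetoacetyl-CoA in the cytosol, rose and was the only one of the 33 called at a threshold of 0.05 on the adjusted p. The test was edgeR's quasi-likelihood test, adjusted over 13604 genes by Benjamini and Hochberg. None of the 33 fell. Of all tested genes 9.2% were called, 5.06% higher and 4.13% lower. At an unadjusted p of 0.05 there were 9 genes higher and 4 lower in pos, and over all genes 19.1% and 15.5%. The median log2 fold change of the 33 was -0.10, and that of all tested genes -0.05. CPM did not overlap between groups for 10 genes higher and 10 lower in pos, beside 56.0% of all tested genes (26.7% higher and 29.3% lower). DESeq2 called 8 higher and 2 lower, beside 21.0% of the genes to which it gave an adjusted p (11.6% higher and 9.33% lower). Its 8 were ACAT2, IDI1, FDPS, FDFT1, NSDHL, HSD17B7, EBP and ACSS2, and its 2 were STARD4 and SCD. Without any 1 of the neg libraries, edgeR called no gene of the table (2510 to 3033 genes at an unadjusted p of 0.05), and so none of the 33 (8, 4 and 6 at an unadjusted p of 0.05 without neg replicates 1, 2 and 3).

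**Figure D2:**
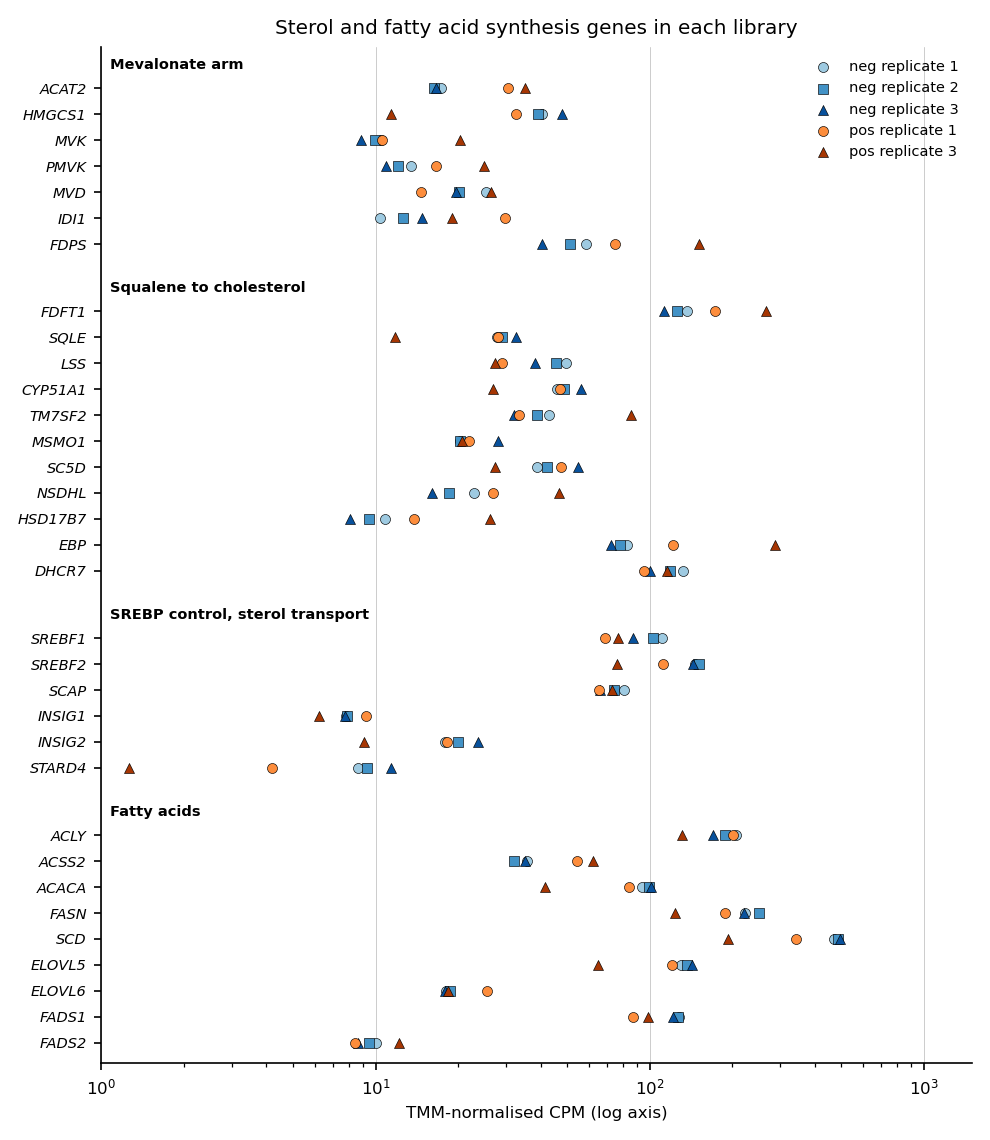
TMM-normalised CPM (log axis) of each gene in the 3 neg libraries (blue) and 2 pos libraries (orange), grouped by role. Both pos points lie to the right of all neg points for ACAT2 and EBP and to the left for STARD4 and SCD, and those of INSIG1 lie on either side of the neg points.

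In the mevalonate arm most genes had higher values in pos as scaled. ACAT2 was at 17.3, 16.3 and 16.6 CPM in neg replicates 1 to 3 and at 30.4 and 35.2 CPM in pos replicates 1 and 3. Both pos values were well above the narrow neg range, a 1.96-fold rise from 16.8 ± 0.473 (SD, n = 3) to 32.8 ± 3.39 CPM (SD, n = 2), with a log2 fold change of 0.97 (SE 0.19, edgeR adjusted p = 0.0420). The call ended without neg replicates 1, 2 and 3 in turn (edgeR adjusted p = 0.178, 0.230 and 0.217), as did every other call of the table. It also ended with library size as the only scaling (0.57, adjusted p = 0.149). ACAT2 lies on chromosome 6 from 159762045 to 159779112 (GRCh38, GENCODE 44), and 29.9% of its canonical transcript overlaps exons of TCP1, a chaperonin gene on the opposite strand with 396 to 418 CPM in neg and 485 and 422 CPM in pos. Whether counting used strand is not given in the sources used here, so the share of TCP1 reads in ACAT2 was not tested.

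IDI1, the isomerase that makes dimethylallyl diphosphate, had 10.4, 12.6 and 14.8 CPM in neg and 29.8 and 19.1 in pos, again without overlap. Its log2 fold change was 0.96 (SE 0.28, edgeR adjusted p = 0.0773). FDPS, farnesyl diphosphate synthase, was at 58.6, 51.4 and 40.6 CPM in neg against 74.6 and 151 in pos (1.17, SE 0.34, adjusted p = 0.0764). In IDI1 the larger pos value came from replicate 1, and in FDPS from replicate 3. With the length trend removed IDI1 was at 0.89, near its value as scaled, and FDPS fell to 0.47. FDPS then had 72.2 and 91.5 CPM in pos against 52.4 to 63.9 in neg. FDPS has 8 pseudogene copies named after it in GENCODE and IDI1 has 3, so reads split between copies are uncertain for both. MVK and PMVK, the consecutive kinases, reached 20.3 and 24.9 CPM in pos replicate 3, against 8.84 to 10.5 and 10.9 to 13.5 CPM in neg, and 10.6 and 16.7 CPM in pos replicate 1. With the length trend removed MVK stayed at a log2 fold change of 0.62 but PMVK turned from 0.77 to -0.14, with pos replicate 3 at 12.4 CPM below 15.3 to 15.6 in neg. MVD, the decarboxylase after them, had 14.6 and 26.4 CPM in pos as scaled, on either side of 19.6 to 25.3 in neg.

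As scaled, HMGCS1 went the other way from most of its neighbours in the pathway. This enzyme condenses acetoacetyl-CoA, the product of ACAT2, with acetyl-CoA, and is a classic SREBP target. It had 40.6, 39.3 and 48.0 CPM in neg and 32.5 and 11.4 in pos. Both pos values were below neg, with pos replicate 3 far below, and the log2 fold change of -0.95 (SE 0.44) did not pass (adjusted p = 0.183). With the length trend removed, 3 of the 7 genes of the mevalonate arm were below 0, namely HMGCS1 (-0.57), MVD (-0.56) and PMVK (-0.14). MVD then had both pos libraries below neg, at 14.4 and 18.4 CPM against 22.5 to 26.5.

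Of the 11 genes from squalene to cholesterol, 4 had both pos libraries above all neg libraries, 1 had both below and 6 overlapped. Among all tested genes 26.7% had both pos libraries above and 29.3% both below. The 4 higher ones were FDFT1, NSDHL, HSD17B7 and EBP. EBP had 82.9, 78.0 and 72.0 CPM in neg and 122 and 286 in pos (log2 fold change 1.39, SE 0.36, edgeR adjusted p = 0.0616). With each library's trend on transcript length removed, EBP was at 94.0 to 98.4 CPM in neg and 116 and 152 in pos (0.48), close to FDFT1 (0.46), NSDHL (0.49) and HSD17B7 (0.46). FDFT1, the first enzyme committed to sterols, had 136, 126 and 112 CPM in neg and 173 and 266 in pos (0.81, SE 0.24, adjusted p = 0.0793). NSDHL and HSD17B7, which act together in removing the C4 methyl groups, had 26.9 and 46.7 CPM and 13.8 and 26.2 CPM in pos, above neg ranges of 16.1 to 22.8 and 8.04 to 10.8. All 4 had their higher pos value in replicate 3.

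As scaled, LSS, lanosterol synthase, was the only one of these 11 with both pos libraries below neg. It was at 29.0 and 27.2 CPM against 49.6, 45.4 and 38.3 (log2 fold change -0.66, SE 0.21, edgeR adjusted p = 0.0874). Its pos libraries were close to each other on that scale. SQLE, squalene epoxidase and a second control point of the pathway, was at 27.8, 28.9 and 32.6 CPM in neg and at 28.0 and 11.8 in pos. Pos replicate 1 lay within the neg range and only replicate 3 was below it (-0.58, SE 0.38, adjusted p = 0.311). CYP51A1, the lanosterol demethylase, repeated that pattern with 45.8, 48.9 and 56.2 CPM in neg and 47.2 and 26.9 in pos. SC5D, a late desaturase, did so too as scaled, with 38.7 to 54.7 CPM in neg and 47.7 and 27.2 in pos. TM7SF2, a sterol reductase, was the reverse, with 32.1 to 42.8 CPM in neg and 33.3 and 85.7 in pos. MSMO1, the C4 methyl oxidase (20.3 to 27.9 CPM in neg, 22.0 and 20.7 in pos), and DHCR7 (100.4 to 133 CPM in neg, 95.6 and 116 in pos) differed little between groups as scaled, with log2 fold changes of -0.10 and -0.15. With the length trend removed, SC5D had both pos libraries above neg, at 46.25 and 48.6 CPM against 34.5 to 41.3 (0.36). LSS then overlapped, with 28.3 and 39.6 CPM in pos beside 32.5 to 45.4 in neg (-0.22). DHCR7 was then the only one of these 11 with both pos libraries below neg, at 94.7 and 105.8 CPM against 107 to 132 (-0.26).

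All 6 genes of SREBP control and sterol transport had a log2 fold change below 0 as scaled, and none passed. Of all 13604 tested genes 7074 were below 0, and of the 5034 with transcripts over 4000 nt only 1027 were above 0. With the length trend removed 4 of the 6 were below 0 and 2 above, with a median of -0.109, and STARD4 passed. SREBF2, the SREBP gene tied most to sterol synthesis and the one with the sterol element core in its printed promoter, had 147, 152 and 144 CPM in neg and 112 and 75.8 in pos. The groups did not overlap (log2 fold change -0.65, SE 0.23, edgeR adjusted p = 0.110). SREBF1, tied most to fatty acid synthesis, had 111, 103 and 87.0 CPM in neg and 68.6 and 76.6 in pos, also without overlap (-0.47, SE 0.20, adjusted p = 0.160). SCAP was level, at 81.0, 74.2 and 65.9 CPM in neg and 65.6 and 72.6 in pos (-0.09, SE 0.19). INSIG1, whose gene is itself an SREBP target and serves as a readout of the pathway, had 7.83, 7.86 and 7.72 CPM in neg and 9.22 and 6.22 in pos. The pos values lay on either side of a tight neg range, so the log2 fold change was -0.01 with an SE of 0.26. INSIG2, which is less tied to SREBPs, was at 17.9, 19.99 and 23.7 CPM in neg and at 18.3 and 9.07 in pos (-0.58, SE 0.34, adjusted p = 0.268).

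STARD4, a small carrier that moves cholesterol between membranes, had the lowest fold change of the 33. Its reads numbered 123, 148 and 142 in neg and 52 and 12 in pos, or 8.60, 9.30 and 11.4 CPM against 4.21 and 1.26. For counting error alone the exact Poisson 95% interval was 3.14 to 5.52 CPM for pos replicate 1, 0.654 to 2.21 for pos replicate 3 and 7.15 to 10.3 for the lowest neg library, so these did not overlap. The log2 fold change was -1.80 (SE 0.50), where edgeR gave an adjusted p of 0.0686 and DESeq2 one of 0.00543. Its size depended on the pos library, at -1.24 without pos replicate 3 and -2.89 without pos replicate 1. STARD4 lies on chromosome 5 from 111496033 to 111512590, and the antisense gene STARD4-AS1, which overlaps 2.68% of its transcript, had at most 5 reads in any library.

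Among the fatty acid genes, the long transcripts of the core enzymes had lower values in pos and ACSS2 had higher ones. SCD was at 469, 486 and 496 CPM in neg and at 343 and 193 in pos. Both pos libraries were below a narrow neg range, with a log2 fold change of -0.85 (SE 0.29) where edgeR gave an adjusted p of 0.0982 and DESeq2 one of 0.0369. FASN, fatty acid synthase, had 222, 251 and 222 CPM in neg and 189 and 123.5 in pos (-0.57, SE 0.24, edgeR adjusted p = 0.157). ACACA, which makes the malonyl-CoA that FASN uses, had 93.5, 99.8 and 102 CPM in neg and 84.1 and 41.6 in pos (-0.64, SE 0.32, adjusted p = 0.204). In both, pos replicate 1 was just below neg and pos replicate 3 much lower. ACLY, which cleaves citrate to cytosolic acetyl-CoA, overlapped between groups, with 206, 188 and 169.7 CPM in neg and 202 and 132 in pos (-0.17, SE 0.25).

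ACSS2 makes cytosolic acetyl-CoA from acetate in place of citrate. Its CPM was 35.8, 32.1 and 35.04 in neg and 54.1 and 62.2 in pos, with both pos libraries above neg and near each other (log2 fold change 0.76, SE 0.19, edgeR adjusted p = 0.0549). The elongases and desaturases differed among themselves. ELOVL5, which elongates polyunsaturated fatty acids, had 130.5, 137 and 142 CPM in neg and 120.4 and 64.8 in pos. ELOVL6, which elongates saturated ones, had 18.0, 18.7 and 18.0 CPM in neg and 25.6 and 18.4 in pos, so only replicate 1 was above neg. FADS1 was lower in both pos libraries as scaled, at 87.2 and 98.9 CPM against 121 to 128 (-0.43, SE 0.18, adjusted p = 0.152), and FADS2 was at 8.42 and 12.2 CPM around 8.60 to 10.1. With the length trend removed, FADS1 had 84.8 and 133 CPM in pos, on either side of 107 to 118 in neg (-0.06).

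These differences followed transcript length. Of the 8 genes with transcripts under 2000 nt, 7 had a positive log2 fold change, with a median of 0.96, and all tested genes of that length had a median of 0.73. Of the 13 genes over 4000 nt, 1 was positive, with a median of -0.57 beside -0.52 for all such genes. The 12 genes between had a median of -0.05 beside 0.04. Over the 33 genes, which share the same 5 libraries, the log2 fold change and log2 length had a Pearson r of -0.73 and a Spearman rho of -0.78. In the single libraries r was -0.51 for pos replicate 1 and -0.74 for pos replicate 3. EBP (1125 nt) and ACACA (10013 nt) lie near the ends of the range of lengths. Among the genes away from the median line of all genes in both pos libraries are STARD4 (4631 nt), IDI1 (2739 nt), ACSS2 (2885 nt) and ELOVL6 (6570 nt). The length split in the roles is uneven, since the median transcript was 1799 nt in the mevalonate arm and 4442 nt in SREBP control and transport.

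**Figure D3:**
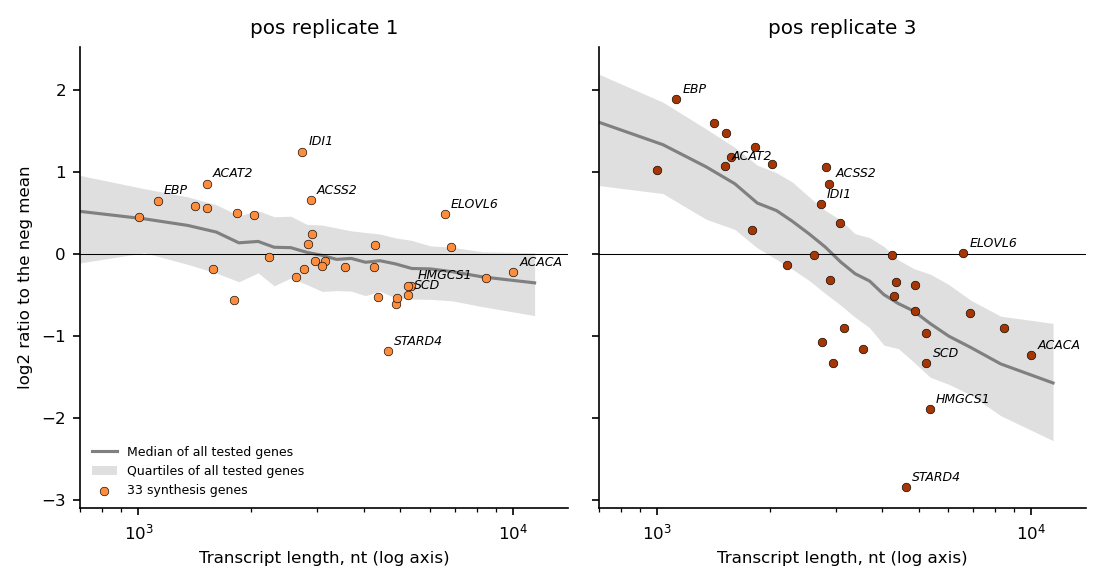
log2 ratio of each pos library to the neg mean against transcript length (log axis), for the 33 genes (points) and for all tested genes (grey line, median in 20 groups of equal size; grey band, quartiles). The grey line falls from short to long transcripts in both libraries and more steeply in pos replicate 3, and STARD4 lies below the band in both.

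With each library's trend on length removed before the same edgeR test, 3 of the 33 genes passed, and ACAT2 was not among them. ACSS2 and ELOVL6 rose and STARD4 fell, beside 13.9% of all tested genes called in that fit (7.3% higher and 6.65% lower). Groups did not overlap for 11 genes higher and 7 lower, beside 51.9% of all tested genes (26.1% higher and 25.8% lower). The median log2 fold change of the 33 was 0.01 and that of all tested genes 0.02. Across the 33 the remaining correlation with length was r = -0.15.

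On that scale ACSS2 had 34.9, 32.0 and 36.0 CPM in neg and 53.6 and 60.9 in pos, a log2 fold change of 0.74 (SE 0.15, edgeR adjusted p = 0.0299), almost as before. ELOVL6 had 16.1, 15.7 and 13.8 CPM in neg and 24.8 and 32.2 in pos (0.90, SE 0.19, adjusted p = 0.0325), where the unadjusted fit gave 0.27 (SE 0.22, adjusted p = 0.407). STARD4 had 7.91, 8.35 and 9.87 CPM in neg and 4.09 and 1.77 in pos (-1.50, SE 0.36, adjusted p = 0.0418). None of the 3 had overlapping groups. Without neg replicates 1, 2 and 3 in turn, none of them passed in that fit, with adjusted p of 0.135, 0.186 and 0.136 for ACSS2, 0.130, 0.163 and 0.149 for ELOVL6 and 0.136, 0.162 and 0.169 for STARD4. STARD4 was at -1.09 without pos replicate 3 and at -2.27 without pos replicate 1. ACSS2 lies on chromosome 20 from 34872146 to 34927962 and ELOVL6 on chromosome 4 from 110045846 to 110199199.

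For ACAT2 the removal brought pos replicate 3 down to 22.2 CPM, beside 18.6 to 21.1 in neg and 29.6 in pos replicate 1 (log2 fold change 0.41, edgeR adjusted p = 0.184). SCD kept both pos libraries below neg, at 333 and 294 CPM against 411 to 426 (-0.43, SE 0.13, adjusted p = 0.0717). FASN and ACACA changed sign, with 183 and 244 CPM in pos, the first within and the second above 156 to 203 in neg, for FASN and 81.5 and 87.7 in pos beside 68.7 to 82.3 in neg for ACACA. SREBF1 moved to 0.00 and SREBF2 to -0.19. SQLE (-0.57), ELOVL5 (-0.61) and HMGCS1 (-0.57, from -0.95) stayed below 0 with none passing. Neither SREBP gene, whose promoters are printed above, passed in either fit.

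**Figure D4:**
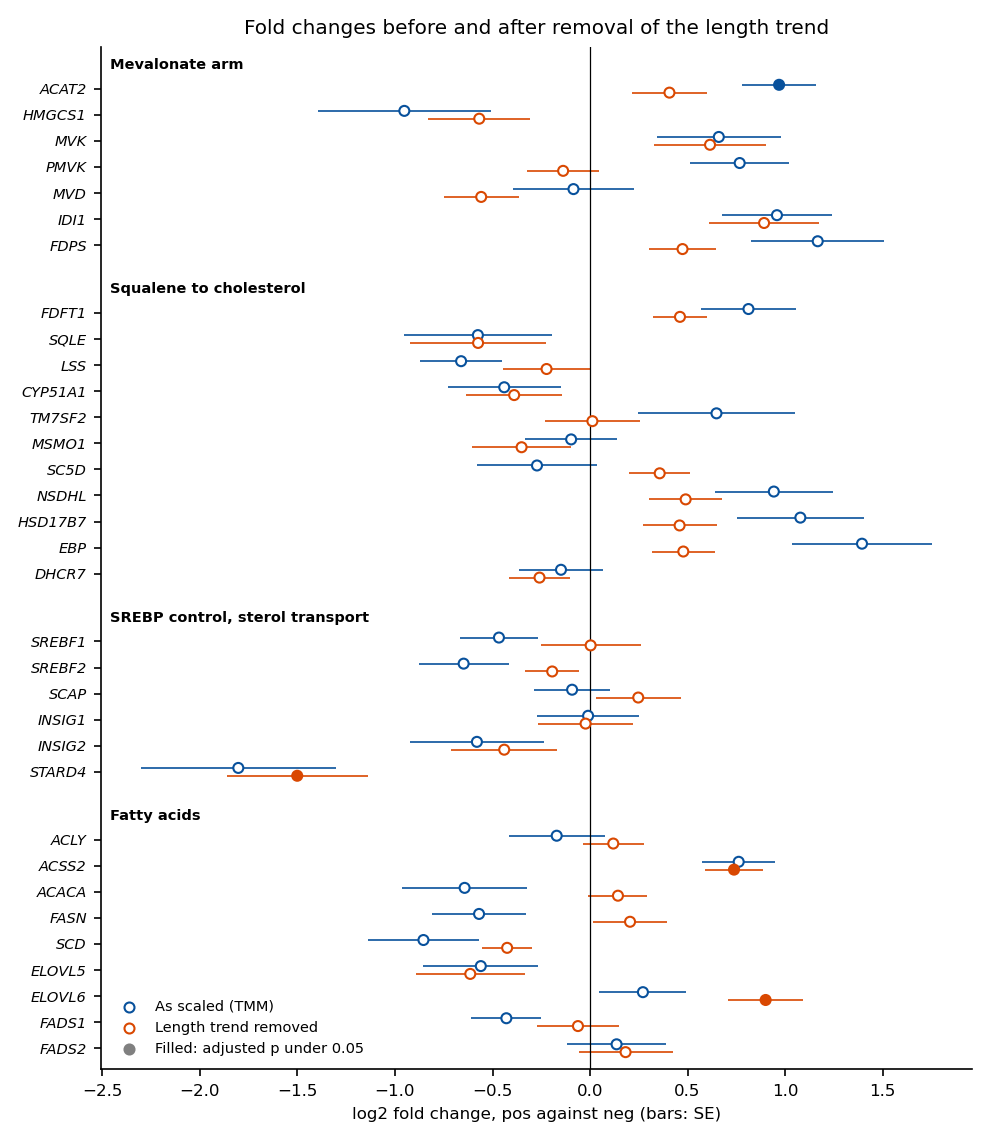
log2 fold change of pos against neg with its SE for each gene, as scaled by TMM (blue) and with the length trend removed (orange), where filled symbols passed an adjusted p of 0.05. ACAT2 is filled in blue only, and STARD4, ACSS2 and ELOVL6 in orange only, while FASN and ACACA lie on opposite sides of 0 in the 2 fits.

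Genes next to the pathway were taken from lists chosen by function. Of 12 tested further sterol and isoprenoid enzymes and 10 genes of SREBP processing and ER retention, none rose or fell in edgeR, with medians of 0.22 and -0.41. At an unadjusted p of 0.05 the counts were 4 and 4, and DESeq2 called 1 and 2, all lower. Of 17 further fatty acid synthesis genes none passed either (median 0.19, 4 at an unadjusted p of 0.05 and 3 called higher by DESeq2). With the length trend removed, UBE2G2 (0.62, edgeR adjusted p = 0.0468) of the SREBP processing list and SLC25A1 (0.67, adjusted p = 0.0403) of the last list rose, and FADS3 of the last list fell (-0.74, adjusted p = 0.0361). In that fit no gene of these lists passed without any 1 neg library (20 to 23 of the 88 related lipid genes at an unadjusted p of 0.05). Of 14 genes of sterol efflux, esterification and trafficking 4 passed as scaled, 2 in each direction, beside 9.2% of all tested genes, and DESeq2 called 3 in each direction. The difference between lists was not tested. SOAT2, which esterifies cholesterol, rose from 4.82, 4.90 and 4.18 CPM in neg to 14.3 and 18.3 in pos (log2 fold change 1.81, SE 0.23, edgeR adjusted p = 0.0316). NR1H3, which encodes the oxysterol receptor LXR alpha, rose from 23.8, 21.9 and 21.1 CPM to 48.5 and 84.1 (1.57, SE 0.27, adjusted p = 0.0381).

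NPC1, which exports cholesterol from lysosomes, fell from 85.9, 76.6 and 78.7 CPM in neg to 37.9 and 29.7 in pos (log2 fold change -1.25, SE 0.21, edgeR adjusted p = 0.0373). ABCG1, a sterol exporter and textbook LXR target, fell from 60.1, 59.3 and 53.0 CPM to 29.7 and 27.9 (-0.996, SE 0.19, adjusted p = 0.0400). The groups were apart for all 4 genes, and all 4 also passed with the length trend removed, at 1.49 for SOAT2, 1.12 for NR1H3, -0.85 for NPC1 and -0.99 for ABCG1. None of the 4 passed without neg replicate 1 (edgeR adjusted p = 0.178 for each), without neg replicate 2 (0.217 to 0.224) or without neg replicate 3 (0.212 for each). No gene of the table passed in those fits as scaled, so this does not set the 4 apart. NR1H3 was at 1.10 without pos replicate 3 and at 1.97 without pos replicate 1. ABCA1, another LXR target, had 3.40 and 0.422 CPM in pos and 4.82 to 6.75 in neg, and did not pass (-1.47, SE 0.71, adjusted p = 0.194).

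**Figure D5:**
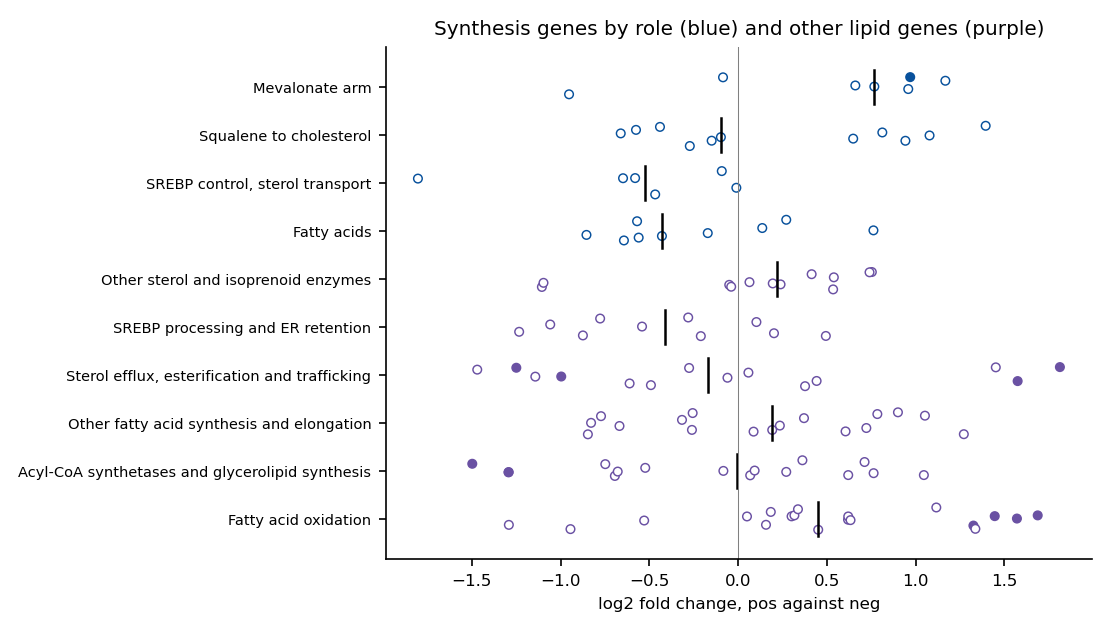
log2 fold change of pos against neg for the 33 synthesis genes by role (blue) and for tested genes of 6 other lipid lists (purple), 1 point per gene, filled where the adjusted p was under 0.05, with the median of each list as a black bar and vertical spread only to part the points. The 4 roles hold 1 filled point, and the list of sterol efflux, esterification and trafficking holds 4, 2 on each side of 0.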

How the data were processed

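Raw counts per gene symbol for 5 libraries were deposited by the authors, from TruSeq stranded mRNA libraries aligned with STAR, per the labels' protocols. STAR 2.5.2b and CASAVA 1.8.2 are named in the submitters' processing notes, as is DESeq2 1.24.0 for the authors' own test. The build is given as hg19 in those notes and as GRCh38 in the protocol, and how reads were counted, with or without strand, is not stated in the labels or notes. The table holds no coordinates, and those printed are from GENCODE 44 or RefSeq (GRCh38).

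After 92 spike-in rows at 0 were left out, the count fits used edgeR 4.0.16 under R 4.3.3, with filterByExpr (minimum count 10, total 15), TMM scaling, glmQLFit and glmQLFTest, two-sided, with Benjamini-Hochberg adjustment at 0.05 over 13604 genes. SE is the log2 fold change over the root of F. CPM is TMM-normalised, and 3 counts equal 0.189 to 0.316 CPM. To remove the length trend, each library's lowess (span 0.3) of log2 CPM, as a deviation from the gene's mean, on log2 length of the canonical transcript was subtracted as an offset. A length was matched for 97.5% of tested genes. DESeq2 1.42.0 and limma-voom (limma 3.58.1) were alternatives, and the fits were tested on simulated counts.

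Replicates are called so by the labels, which say only that cells were cultured in triplicate, so p-values measure the spread between these libraries. No replicate pair agreed within sampling noise (chi-square per degree of freedom 6.02 to 22.4 in neg pairs and 152 in the pos pair). Where a pos library is left out, the lone pos library is assumed to vary like neg. Genes named with values in every library were those past the threshold, 12 core genes whatever their p, at most 4 per other list past the threshold, and STARD4, ACSS2 and ELOVL6, which passed with the length trend removed. The other genes named were added after their values were seen. Leaving out each neg library with the length trend removed was also chosen after seeing the data. The genes and lists were chosen with earlier results of these data known.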

Additional observations from a re-analysis of the deposited data

How the results depend on the processing

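Counts of calls stayed within 1.5 times under limma-voom, DESeq2's size factors, no filter and a filter of 5 CPM in 2 libraries (1041 to 1334 genes, 1 of the 33 and 9 to 13 related lipid genes). Other choices moved them. DESeq2 called 3042 genes in all, 10 of the 33 and 25 of the 88 tested related lipid genes, where edgeR called 1251, 1 and 10. Library size as the only scaling, which shifted the median of all genes from -0.05 to -0.41, gave 606, 0 and 2 calls and a median of -0.50 for the 33. The replicate block gave 87, 0 and 0 calls (1669 genes, 1 of the 33 and 17 related genes at an unadjusted p of 0.05) and a median of -0.16. Replicate numbers are shared by only 2 pairs, which the labels do not say were cultured together. The deviations of pos replicates 1 and 3 from their group correlated at -0.44 and -0.45 with those of the neg replicates of the same number. These 2 values are not independent. Deviations of the 2 pos libraries mirror each other (r = -1), and those of neg replicates 1 and 3 correlated at -0.809. Removing the length trend gave 1897, 3 and 16 calls and a median of 0.012. limma-voom gave a median of -0.14. An adjusted p of 0.01 left 0 of the 33 and one of 0.10 gave 12. All tested genes were not counted at these thresholds, so neither count can be set against a share of all genes.

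Without 1 library at a time, calls ranged from 0 to 8819 genes, 0 to 24 of the 33 and 0 to 64 related genes, and the median of the 33 from -0.152 to -0.051. With the length trend also removed the ranges were 0 to 7222 (20 without neg replicate 2 and 4999 without pos replicate 3), 0 to 18 and 0 to 60. The median there was 0.107, 0.025 and -0.012 without neg replicates 1, 2 and 3, -0.08 without pos replicate 3 and 0.21 without pos replicate 1. The low ends came from leaving out a neg library, where 2510 to 3033 genes had an unadjusted p under 0.05 (2708 to 3169 with the trend removed), and the high ends from a lone pos library.

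Among the lipid genes past the threshold as scaled and the 12 core genes, signs changed for these. INSIG1 (-0.01) was at 0.00 in DESeq2 and 0.013 with its size factors, and at -0.28 and 0.21 without pos replicates 1 and 3 (0.22 for the latter with the trend removed). SCAP was at 0.027 and -0.19 and ACLY at -0.47 and 0.079 without pos replicates 1 and 3. With the length trend removed SREBF1 was at 0.003, SCAP at 0.25, FASN at 0.20, ACACA at 0.14 and ACLY at 0.12. Without 1 library in that fit the values above 0 were 0.023, 0.107 and 0.34 for SREBF1, 0.16 to 0.33 without a neg library and 0.53 without pos replicate 1 for SCAP, and 0.10 to 0.28 and 0.42 for FASN. They were 0.079 to 0.20 and 0.078 to 0.21 for ACACA, with 0.165 without neg replicate 2, and 0.036 to 0.20, 0.048 and 0.194 for ACLY. LSS was at 0.017 without pos replicate 1. Outside this set, removing the length trend took PMVK from 0.77 to -0.14 and SC5D from -0.27 to 0.36. ELOVL6 went from 0.27 to -0.07 with library size as the only scaling. The sign was not followed in every fit for all 33 genes. The causes were not tested. With 12 reads in pos replicate 3, STARD4 is the least precise of the 33 at this depth.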

Other observations

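Lists of fatty acid oxidation and of acyl-CoA and glycerolipid synthesis were read from the same fit. Of 19 fatty acid oxidation genes 4 rose and none fell, beside 5.06% of all tested genes called higher. The median log2 fold change of the list was 0.45, and 0.36 with the length trend removed, against -0.05 and 0.02 for all tested genes. ACAA2, the last enzyme of the mitochondrial cycle, rose from 27.6, 31.2 and 26.0 CPM in neg to 68.8 and 72.8 in pos (log2 fold change 1.33, SE 0.19, edgeR adjusted p = 0.0326). HADH, the enzyme before it, rose from 30.3, 23.01 and 21.2 CPM to 66.7 and 81.1 (1.57, SE 0.23, adjusted p = 0.0337). DECR1, needed for unsaturated fatty acids, rose from 29.2, 30.6 and 31.2 CPM to 62.2 and 103 (1.45, SE 0.26, adjusted p = 0.0386). ETFB, which passes electrons on from the cycle, rose from 157, 133 and 134 CPM to 262 and 649 (1.69, SE 0.38, adjusted p = 0.0491). With the length trend removed ETFB did not pass (0.56, adjusted p = 0.0504), and ACAA2, HADH and DECR1 did. CPT1A, the entry step into mitochondria, was at 292 to 309 CPM in neg and 355 and 321 in pos, and did not pass (0.16, SE 0.18).

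Of 16 genes of acyl-CoA and glycerolipid synthesis 2 fell and none rose, beside 4.13% of all tested genes called lower. Both encode lipins, the phosphatidate phosphatases that make diacylglycerol. LPIN1 fell from 20.4, 18.5 and 21.2 CPM in neg to 9.63 and 6.64 in pos (-1.29, SE 0.25, edgeR adjusted p = 0.0413), and LPIN2 from 82.4, 86.6 and 89.5 CPM to 40.0 and 20.9 (-1.50, SE 0.32, adjusted p = 0.0450). They were at -0.81 and -0.98 with the length trend removed, where both passed. ACSL3, an acyl-CoA synthetase of lipid droplets, was at 102, 91.7 and 119 CPM in neg and at 53.6 and 31.3 in pos, with an adjusted p of 0.0502 as scaled and 0.0269 with the trend removed. CHKA, a choline kinase gene, was at 83.5, 94.1 and 95.6 CPM in neg and at 138 and 171 in pos, with an adjusted p of 0.0599 as scaled and 0.0387 with the trend removed (0.68). None of the 6 genes called as scaled in these 2 lists passed without any single neg library (edgeR adjusted p = 0.178 to 0.222). Nor did any other gene of the table in those fits. DECR1 was at 1.01 without pos replicate 3 and 1.81 without pos replicate 1, ETFB at 0.86 and 2.25, and LPIN2 at -1.13 and -1.998.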
